A study of Mus musculus with 9 samples.

Results

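The Cdc2-like kinases Clk1, Clk2, Clk3 and Clk4 and the Luc7-like factors Luc7l, Luc7l2 and Luc7l3 were followed in ribosome-associated RNA of mouse cortical neurons. They were taken by gene name from both transcript tables, which gave 7 of 47593 gene names and 72 of 115220 transcripts, and a gene value is the sum of the FPKM (fragments per kilobase of transcript, scaled to the mapped fragments of the library) of its transcripts. Luc7l was the member that differed most between the states: it averaged 37.5 ± 1.99 FPKM in enforced wake with Fxr1, 30.1 ± 9.44 in enforced wake and 13.2 ± 0.876 in sleep (mean ± SD, n = 3 each). Most of that difference lay in 1 long coding transcript, Luc7l-202, which was high in 5 of the 6 enforced wake libraries and low in the sixth and in sleep. Clk3 was called higher in enforced wake than in sleep and Luc7l3 higher in enforced wake with Fxr1 than in sleep, both by small margins. For each of them 12 other settings removed the call, while 5 kept that of Clk3 and 8 that of Luc7l3. No member passed between enforced wake with and without Fxr1.

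Clk kinases are nuclear kinases that phosphorylate SR proteins, the serine- and arginine-rich factors that bind exons and recruit the splicing machinery, and so change which splice sites are used. Their own transcripts are known for regulated splicing: skipping of exon 4 removes the frame that leads into the kinase domain, and transcripts of Clk1 and Clk4 with retained introns are known to be held in the nucleus and spliced on demand. Luc7-like proteins are relatives of the yeast factor Luc7, a component of the U1 snRNP, the particle that recognises 5′ splice sites. Luc7l, Luc7l2 and Luc7l3 take part in the choice of 5′ splice sites.

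Adult C57BL/6 mice supplied all 9 libraries, each made from neurons of the medial prefrontal cortex (mPFC). In the enforced wake with Fxr1 group a fusion of green fluorescent protein with the RNA-binding protein Fxr1 (GFP-Fxr1) was overexpressed in the mPFC, in the enforced wake and sleep groups GFP alone, and each group had 3 libraries. RNA bound to ribosomes was taken by RiboTag immunoprecipitation, the pull-down of an epitope-tagged ribosomal protein, and sequenced with the Illumina TruSeq Stranded total RNA chemistry. The promoter of the transgene, the Cre line behind the tag and the length of the enforced wake are not given in the sources used here. The labels do not state whether each replicate is its own animal, hence p-values cover only how these samples vary, and that variation may be technical. In a bulk pull-down fewer cells of a type and less RNA per cell cannot be told apart.

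Depth was estimated at 2.999e+07 to 3.743e+07 fragments per library. Fxr1 itself had 91.1, 67.7 and 71.8 FPKM in enforced wake with Fxr1, 34.8, 33.9 and 31.1 in enforced wake and 31.7, 34.8 and 31.0 in sleep, so all 3 overexpressing libraries lay above the other 6. Replicates correlated across genes with r of 0.957 to 0.987 in enforced wake with Fxr1, where replicate 1 stood furthest from the others, 0.989 to 0.990 in enforced wake and 0.984 to 0.987 in sleep. Deviations from the mean of all libraries followed the GC content of transcripts, with Spearman correlations across 11516 genes of -0.81, -0.42 and -0.26 in enforced wake with Fxr1, 0.65, 0.70 and 0.74 in enforced wake and 0.25, -0.39 and 0.17 in sleep. The members lie at both ends of that scale. By the GC content of the longest transcript, Clk1 and Clk4 stood at percentiles 4.06 and 3.16 of genes and Luc7l3, Luc7l2 and Luc7l at percentiles 11, 12.4 and 36.2, with Clk2 at 79.8 and Clk3 at 93.1. For the member genes, differences are therefore also given with the trend of GC content and length removed. For all other genes, and for most transcripts including those of Luc7l and Clk4, they are given without that removal.

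The sequences of alternative exons are shown, which some transcripts of a gene hold and others lack. Exons are in capitals, the 15 flanking bases of the neighbouring exons in the mature transcript in lower case, all 5′ to 3′ on the strand of the gene, from GENCODE M21 transcripts of GRCm38. Exon 4 of Clk1 (chr1:58420121-58420211, minus strand) and of Clk4 (chr11:51273078-51273168, plus strand) each had 91 bases, and 85 of them (93.4%) were identical. How reads shared by the genes were assigned is not given.
Clk1 exon 4: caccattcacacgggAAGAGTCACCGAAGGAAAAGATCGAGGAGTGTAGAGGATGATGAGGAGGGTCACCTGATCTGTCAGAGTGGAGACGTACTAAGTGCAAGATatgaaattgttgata
Clk4 exon 4: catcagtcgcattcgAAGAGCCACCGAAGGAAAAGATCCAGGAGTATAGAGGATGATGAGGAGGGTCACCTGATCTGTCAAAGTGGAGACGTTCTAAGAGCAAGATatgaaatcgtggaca
Neither length is divisible by 3, so skipping the exon shifts the reading frame. The skipped form of Clk1 joins exon 3 directly to exon 5, and in the annotation its reading frame ends after 135 codons, against 483 codons in Clk1-201, which includes the exon. The joined ends are shown for Clk1-210.
Clk1 junction of exon 3 and exon 5: caccattcacacgggatgaaattgttgata
The exons at the same place in Clk2 (chr3:89169618-89169702, plus strand) and Clk3 (chr9:57758627-57758723, minus strand) had 85 and 97 bases. Luc7l-206 carries an extra exon of 71 bases (chr17:26253974-26254044, plus strand), shown next, and its annotated frame ends after 79 codons, against 371 in Luc7l-202.
Luc7l extra exon: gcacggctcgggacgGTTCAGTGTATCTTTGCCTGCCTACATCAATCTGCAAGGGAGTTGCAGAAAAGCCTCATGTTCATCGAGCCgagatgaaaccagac
Luc7l-202 also differs at its other end. It stops in a distal last exon of 3880 bases (chr17:26281625-26285504), while Luc7l-206 and Luc7l-201 stop in a proximal last exon (chr17:26279961-26280719 in Luc7l-201).

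**Figure D1:**
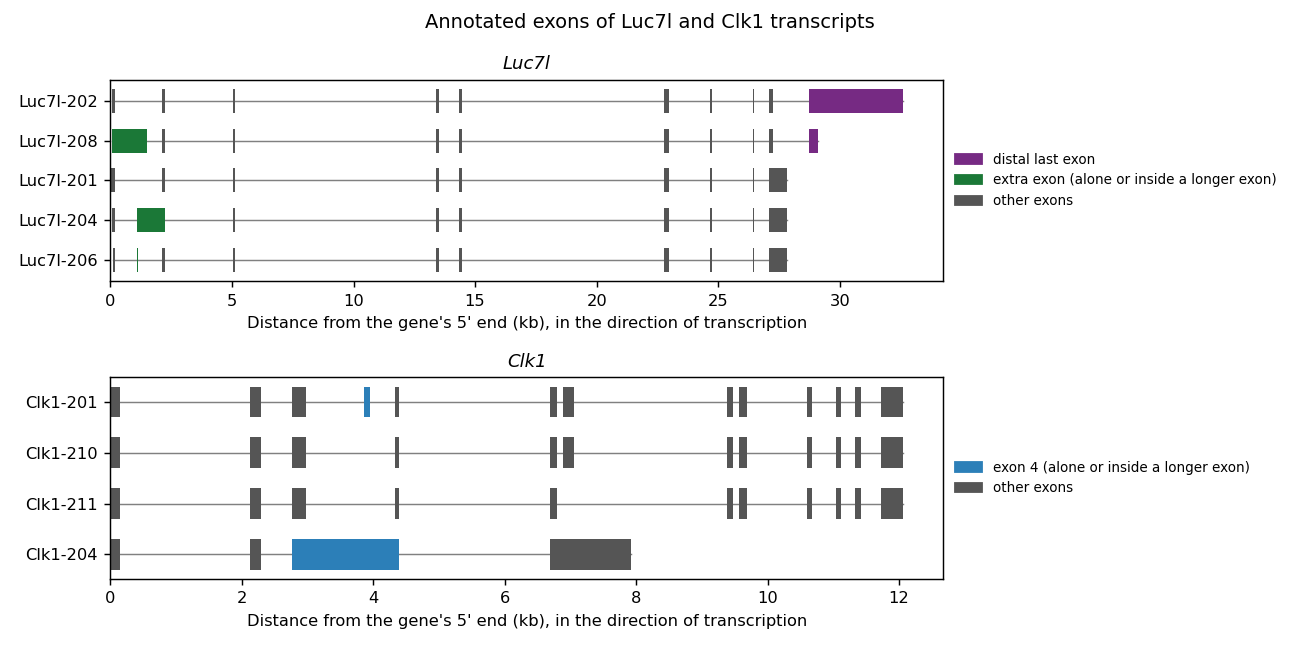
Exon maps of 5 Luc7l and 4 Clk1 transcripts, with distance from the 5′ end of the gene in kilobases on the horizontal axis and 1 transcript a row. Boxes are exons, and coloured boxes mark the distal last exon, the extra exon and exon 4, alone or inside a longer exon. Luc7l-202 ends in the distal exon of 3880 bases and lacks the extra exon of Luc7l-206, and Clk1-210 and Clk1-211 lack the exon 4 of Clk1-201.

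All 7 genes were measured in every library and passed the filter of a mean FPKM of at least 0.5. Of the 72 transcripts, 71 were found in the annotation: 25 are protein coding, 25 retain an intron, 12 are classed as targets of nonsense-mediated decay, which degrades RNA with an early stop, and 9 are processed transcripts without a frame. A total of 5 transcripts were listed at 0 in all libraries, and 36 had a mean of at least 0.5 FPKM over the 9 libraries, of which 7 were at 0 in at least 1. By mean FPKM over all libraries the order was Luc7l at 26.9, Luc7l2 at 25.2, Luc7l3 at 22.9, Clk4 at 13.8, Clk1 at 13.6, Clk3 at 10.5 and Clk2 at 5.88. Over all genes these means stood at percentiles 77.8 to 81.0 for the Luc7-like factors and 44.0 to 66.0 for the Clk kinases. The place of Luc7l depended on the group: at 13.2 FPKM in sleep it lay beside Clk4 at 13.5 and below Luc7l2 at 21.9 and Luc7l3 at 20.5, while in both enforced wake groups it had the highest mean of the 7. Clk4 and Clk1, and Luc7l2 and Luc7l3, differed by less than their spread over the 9 libraries.

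Enforced wake was set against sleep in GFP controls to ask which members follow the state of the animal. Luc7l and Clk3 rose and no member fell. The 2 of 7 members called at a limma adjusted p of 0.05 compare with 28.3% of all 14673 genes tested (15.7% higher and 12.7% lower), so the members were called about as often as genes at large. The median log2 difference of the members was 0.26, against 0.00427 over all genes. With the trend of GC content and length removed these medians were 0.21 and -0.018. Groups did not overlap for 4 members, 3 higher and 1 lower in enforced wake, and for 49.5% of all genes (25.8% higher and 23.8% lower).

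Luc7l (ENSMUSG00000024188, GRCm38 chromosome 17, 26252896 to 26285504, plus strand) had 36.5, 19.3 and 34.6 FPKM in enforced wake and 12.3, 14.02 and 13.3 FPKM in sleep. Every enforced wake library lay above every sleep library, with replicate 2 nearest to sleep. On the log2(FPKM + 1) scale, used for all differences, it was higher by 1.08 (SE 0.23) at a limma adjusted p of 0.0175. Luc7l kept its call under all alternatives but 1, the fit without enforced wake replicate 3, where the difference was 0.96 and the limma adjusted p 0.0633. With the trend of GC content and length removed it was 1.14 (limma adjusted p = 0.0192). A sum of FPKM changes when long and short transcripts trade places, and with each transcript weighted by its length the difference was 1.83 (limma adjusted p = 0.0334).

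Clk3 (ENSMUSG00000032316, chromosome 9, 57750624 to 57765860, minus strand) had 12.1, 12.2 and 13.6 FPKM in enforced wake and 10.7, 8.0 and 10.03 in sleep. The groups did not overlap, and the difference was 0.37 (SE 0.11, limma adjusted p = 0.0470). With the trend of GC content and length removed it was 0.04 (limma adjusted p = 0.598). The call was also lost without any 1 of enforced wake replicates 1, 2 and 3 or of sleep replicates 2 and 3 (limma adjusted p of 0.0602 to 0.138). It was lost too with no filter (0.0946), quantile normalization (0.0516), other libraries in the fit and untrended variance. In all, 12 alternatives removed the Clk3 call and 5 kept it. Clk3 shares 1876 bases with Edc3, which lies on the opposite strand, and whether strand was used in the estimates is not given.

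Clk2 (ENSMUSG00000068917, chromosome 3, 89164795 to 89176921, plus strand) had 6.57, 6.49 and 7.15 FPKM in enforced wake and 5.84, 4.91 and 5.64 in sleep. The groups did not overlap, yet the difference of 0.26 (SE 0.08) did not pass (limma adjusted p = 0.0524) and was -0.01 with the trend of GC content and length removed. Clk1 (ENSMUSG00000026034, chromosome 1, 58410189 to 58424066, minus strand) had 15.2, 11.5 and 13.4 FPKM in enforced wake and 12.1, 9.63 and 10.2 in sleep. Its groups overlapped by 1 library each, and the difference of 0.31 (SE 0.12, limma adjusted p = 0.0993) was 0.67 and passed with the trend removed (limma adjusted p = 0.0303).

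The other 3 members did not pass. Clk4 (ENSMUSG00000020385, chromosome 11, 51261730 to 51281766, plus strand) had 12.1, 12.4 and 11.997 FPKM in enforced wake and 14.4, 13.2 and 12.9 in sleep. All 3 enforced wake libraries lay below the sleep libraries, but the difference of -0.14 (SE 0.06) did not pass (limma adjusted p = 0.148) and was 0.19 with the trend removed. Luc7l2 (ENSMUSG00000029823, chromosome 6, 38551334 to 38609470, plus strand) had 23.2, 20.7 and 21.8 FPKM in enforced wake and 21.2, 21.9 and 22.6 in sleep, with overlapping groups and a difference of 0.21 with the trend removed (limma adjusted p = 0.0654). Luc7l3 (ENSMUSG00000020863, chromosome 11, 94287890 to 94321988, minus strand) had 22.1, 22.1 and 20.2 FPKM in enforced wake and 20.1, 20.4 and 20.9 in sleep. Luc7l3 also overlapped and differed by 0.06 (SE 0.06, limma adjusted p = 0.451), but by 0.29 with the trend removed (limma adjusted p = 0.0209).

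**Figure D2:**
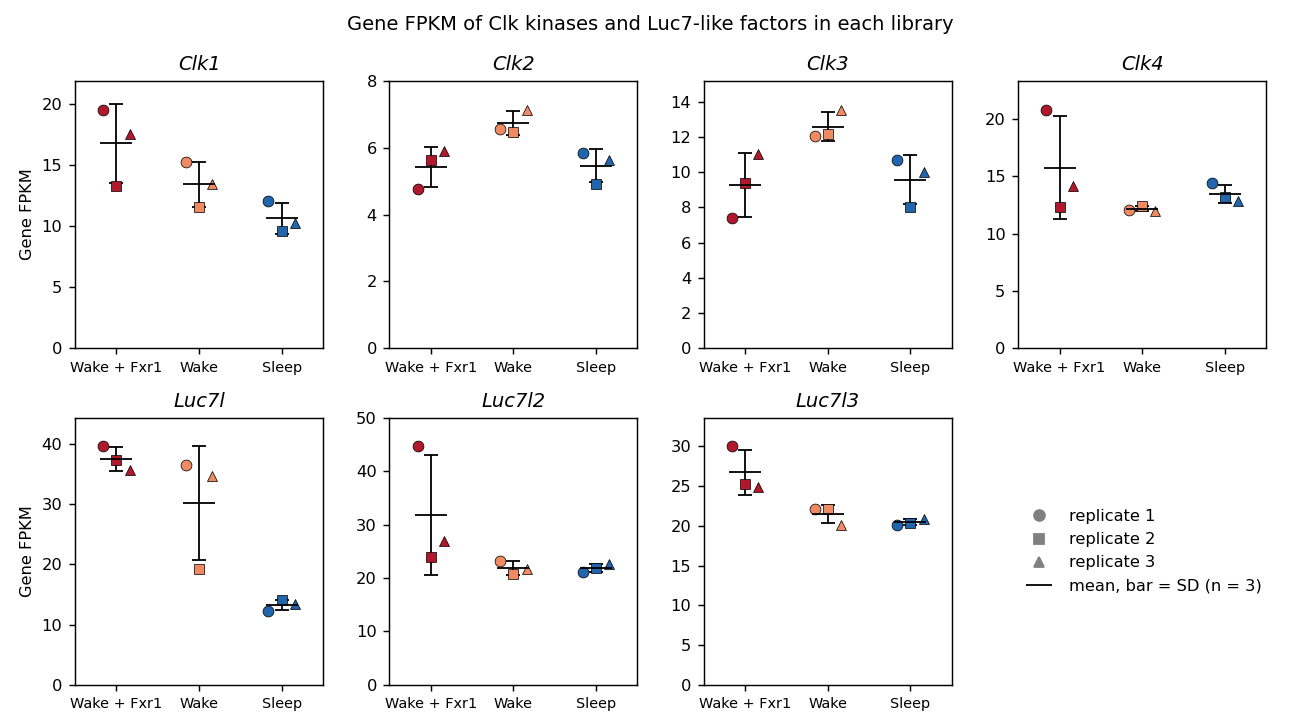
Gene FPKM (vertical axis, from 0) of the 7 members in each library, with enforced wake with Fxr1 on the left, enforced wake in the middle and sleep on the right; symbols are libraries by replicate number, lines are means and bars 1 SD (n = 3). Luc7l lay at 35.6 to 39.6 FPKM in enforced wake with Fxr1 and at 12.3 to 14.02 in sleep, with enforced wake replicate 2 at 19.3 between them.

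The Luc7l difference was traced to its transcripts. Luc7l-202 (ENSMUST00000114976, 4934 bases, coding) had 39.2, 36.0 and 33.5 FPKM in enforced wake with Fxr1, 35.2, 3.33 and 31.6 FPKM in enforced wake and 2.54, 1.22 and 0.960 FPKM in sleep. Enforced wake replicate 2 thus stood with the sleep libraries, although across all genes it correlated with its own replicates at 0.989 and 0.990. Luc7l-206 (ENSMUST00000148894, 1672 bases, classed for decay) had the opposite pattern: 0.0740, 0 and 0 FPKM in enforced wake with Fxr1, 0.359, 10.01 and 0 in enforced wake and 7.10, 8.32 and 6.62 in sleep. The same 4 libraries were high for Luc7l-206 and low for Luc7l-202.

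In enforced wake against sleep Luc7l-202 differed by 2.79 (SE 0.89, limma adjusted p = 0.153) and Luc7l-206 by -1.75 (SE 0.94, limma adjusted p = 0.339), neither past the threshold. Without enforced wake replicate 2 both passed, at 3.79 and -2.83 (limma adjusted p = 0.0271 and 0.0215). That library held the values that went against the differences, so leaving it out favours a pass. Without enforced wake replicate 3, or without any 1 sleep library, no member transcript passed. Against sleep, enforced wake with Fxr1 differed by 3.90 for Luc7l-202 (SE 0.76, limma adjusted p = 0.0787) and by -3.02 for Luc7l-206 (SE 0.80, limma adjusted p = 0.157) in the fit of all 9 libraries. In that comparison the groups did not overlap for either transcript, and both passed when the 3 enforced wake libraries were left out of the fit (limma adjusted p = 0.0108 and 0.00428). The spread of the 9-library fit includes enforced wake replicate 2.

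The switch was also seen when transcripts were summed by their last exon, a grouping made after the values were seen and given without a test. Transcripts with the distal last exon took 99.1%, 97.7% and 96.2% of Luc7l FPKM in enforced wake with Fxr1, 97.5%, 35.5% and 93.6% in enforced wake and 36.1%, 33.3% and 40.2% in sleep. The group includes Luc7l-202, so it repeats those values in part. Of its 4 transcripts only Luc7l-202 reaches the end of that exon at 26285504, and the others stop at 26281968 to 26281992. Luc7l-202 alone took 99.1%, 96.5% and 94.2% in enforced wake with Fxr1. It took 96.5%, 17.3% and 91.3% in enforced wake and 20.7%, 8.69% and 7.19% in sleep. Summed as FPKM times transcript length in kilobases, an estimate of Luc7l fragments at equal depth, Luc7l had 194, 180 and 170 in enforced wake with Fxr1, 176, 42.3 and 161 in enforced wake and 29.2, 29.9 and 28.9 in sleep. The 5 high libraries thus held at least 161 and the 4 low ones at most 42.3 on that scale. Because FPKM divide by length, the 1.08 of the gene sum and the 1.83 of the length-weighted value describe the same libraries. No annotated gene other than Luc7l overlaps the distal last exon. Whether the step between libraries lies in the RNA or in the assignment of fragments to transcripts was not tested.

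Enforced wake with Fxr1 was next set against enforced wake to ask which members differ when Fxr1 is raised. None of the 7 members passed, against 0.412% of all 14563 genes (0.0824% higher and 0.33% lower), and 3 members had an unadjusted limma p under 0.05, against 5582 of all genes. The median log2 difference of the members was 0.30, against -0.06 over all genes. With the trend of GC content and length removed these medians were 0.16 and 0.04. Groups did not overlap for 4 members, with Clk2 and Clk3 lower and Luc7l2 and Luc7l3 higher in enforced wake with Fxr1, and for 52.5% of all genes (20.3% higher and 32.3% lower).

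Luc7l3 had 30.01, 25.3 and 24.9 FPKM in enforced wake with Fxr1 and 22.1, 22.1 and 20.2 in enforced wake, so all libraries with Fxr1 were higher. The difference of 0.30 (SE 0.10, limma adjusted p = 0.0990) passed when the sleep libraries were added to the fit (limma adjusted p = 0.0437), but was -0.02 with the trend of GC content and length removed. Luc7l2 had 44.6, 23.95 and 26.9 FPKM in enforced wake with Fxr1 and 23.2, 20.7 and 21.8 in enforced wake (0.47, SE 0.22, limma adjusted p = 0.167), and the difference was 0.16 with the trend removed and 0.20 without enforced wake with Fxr1 replicate 1. The high value belonged to replicate 1, the library that stood apart, and came with a single transcript: Luc7l2-213 (coding, 3141 bases) had 16.2 FPKM there and at most 0.432 FPKM in the other 8 libraries. Luc7l, at 39.6, 37.3 and 35.6 FPKM in enforced wake with Fxr1, differed from enforced wake by 0.36 (SE 0.24, limma adjusted p = 0.286), by 0.31 with the trend removed and by 0.07 without enforced wake replicate 2.

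The Clk kinases split. Clk3 had 7.42, 9.39 and 11.1 FPKM in enforced wake with Fxr1 and 12.1, 12.2 and 13.6 in enforced wake (-0.42, SE 0.15, limma adjusted p = 0.101). Clk2 had 4.76, 5.64 and 5.90 FPKM in enforced wake with Fxr1 and 6.57, 6.49 and 7.15 in enforced wake (-0.27, SE 0.11, limma adjusted p = 0.120). Both lay lower in every library with Fxr1, and both signs turned, to 0.28 and 0.41, with the trend of GC content and length removed. Clk1 had 19.5, 13.2 and 17.5 FPKM in enforced wake with Fxr1 and 15.2, 11.5 and 13.4 in enforced wake (0.29, SE 0.17, limma adjusted p = 0.224). Clk4 had 20.8, 12.3 and 14.2 FPKM in enforced wake with Fxr1 and 12.1, 12.4 and 11.997 in enforced wake (0.32, SE 0.18, limma adjusted p = 0.232). Those 2 groups overlapped, replicate 1 was the highest library for both genes, and their signs turned as well, to -0.20 for Clk1 and -0.10 for Clk4, with the trend removed.

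Enforced wake with Fxr1 was last set against sleep, in a fit of all 9 libraries that shares its groups with the comparisons above. Luc7l and Luc7l3 rose and no member fell: 2 of 7, against 7.79% of all 14617 genes (3.2% higher and 4.58% lower). The median log2 difference of the members was 0.36, against -0.09 over all genes. With the trend of GC content and length removed these medians were 0.37 and 0.024. Groups did not overlap for 4 members, all higher in enforced wake with Fxr1, and for 32.7% of all genes (11.5% higher and 21.2% lower). Luc7l differed by 1.44 (SE 0.21, limma adjusted p = 0.00796) and was called under every alternative tried, with differences of 1.39 to 2.59 and limma adjusted p of 0.00285 to 0.0416, and 1.45 with the trend of GC content and length removed. Luc7l3 differed by 0.36 (SE 0.09, limma adjusted p = 0.0419), with all libraries with Fxr1 above all sleep libraries. It was 0.26 and still called with the trend of GC content and length removed (limma adjusted p = 0.0265). The limma adjusted p rose above 0.05 without enforced wake with Fxr1 replicate 2 and without any 1 of the enforced wake or sleep libraries (0.0572 to 0.135). It did likewise with no filter (0.0572) and with the length-weighted value (0.0508). In all, 12 alternatives removed the Luc7l3 call and 8 kept it.

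Clk1 lay higher in all 3 libraries with Fxr1 than in any sleep library, by 0.60 (SE 0.16), and narrowly did not pass (limma adjusted p = 0.0535). It passed with the length-weighted value (0.66, limma adjusted p = 0.0374), with quantile normalization, with equal protein-coding totals and without enforced wake with Fxr1 replicate 2. Luc7l2 also did not overlap between the groups and did not pass (0.47, SE 0.20, limma adjusted p = 0.158). Its difference was 0.20 without enforced wake with Fxr1 replicate 1 and 0.37 with the trend of GC content and length removed. Clk2, Clk3 and Clk4 differed by -0.01, -0.05 and 0.18, with limma adjusted p of 0.462 or more. With the trend of GC content and length removed Clk2 was called, at 0.40 (limma adjusted p = 0.0476), while Clk1 at 0.47, Clk3 at 0.32 and Clk4 at 0.09 were not.

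**Figure D3:**
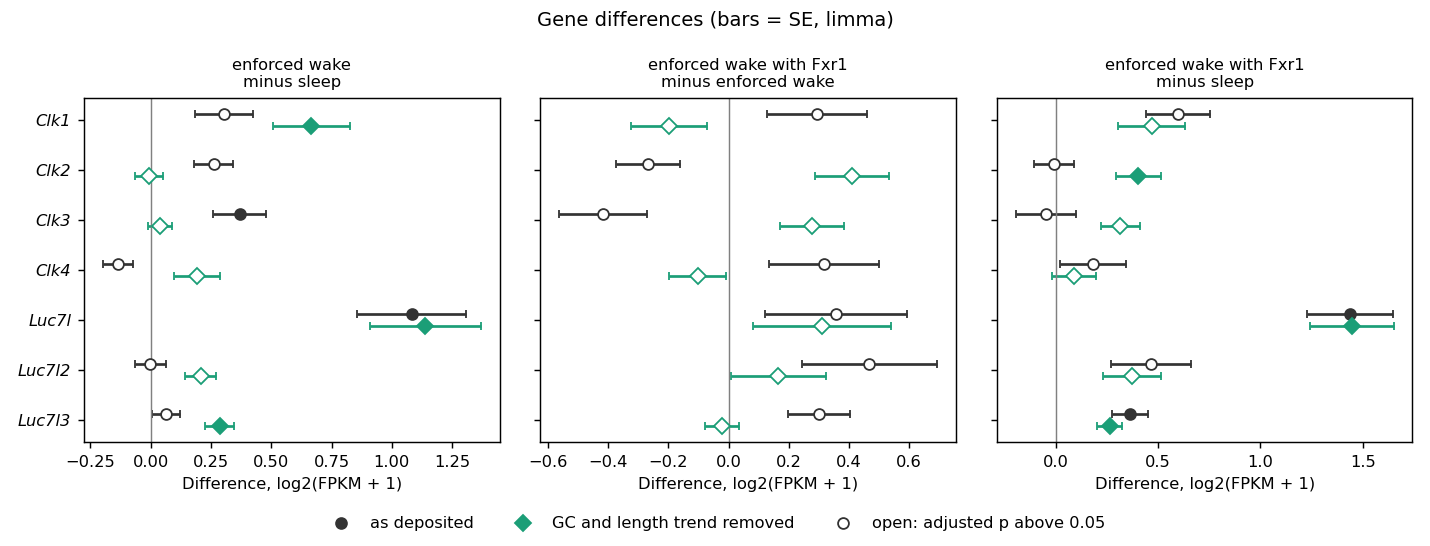
Differences on the log2(FPKM + 1) scale (horizontal axis) of the 7 members in the 3 comparisons, as fitted and with the trend of GC content and length removed; points are fitted differences, bars their standard errors, and filled points had a limma adjusted p below 0.05. Luc7l lies at 1.08 and 1.44 against sleep, and the Clk2 and Clk3 points between enforced wake with and without Fxr1 change side when the trend is removed.

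The transcripts were also tested singly. None of 33, 35 and 36 member transcripts passed in enforced wake against sleep, enforced wake with Fxr1 against enforced wake and enforced wake with Fxr1 against sleep. Over all transcripts limma called 3.62%, 0.895% and 0.818%. An unadjusted limma p under 0.05 was found for 5, 5 and 6 member transcripts. Over all transcripts it was found for 6485 of 29116, 5675 of 28837 and 4412 of 28989. Groups did not overlap for 5, 7 and 8 member transcripts, against 32.8%, 34.2% and 21.8% of all transcripts. Each transcript was also tested as its share, here the log2 ratio to the summed other transcripts of its gene. None of 32, 34 and 35 member shares passed, against 0.493%, 0.814% and 0.154% of all shares. For 5, 1 and 5 member shares the unadjusted limma p was under 0.05. Over all shares it was so for 2404 of 22117, 2373 of 21867 and 1739 of 22020. The ratio of non-coding to coding transcripts gave none of 6 genes in any comparison, against 0.541%, 0.659% and 0.0469% of all ratios. In the first 2 comparisons the unadjusted limma p was under 0.05 for 1 and 0 of the 6. Over all ratios it was so for 491 of 4249 and 439 of 4248. Among the members Luc7l had the ratio that differed most, -5.87 on the log2 scale in enforced wake with Fxr1 against sleep (SE 1.18, limma adjusted p = 0.396) and -4.18 in enforced wake against sleep (SE 1.35, limma adjusted p = 0.371).

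Among Clk1 transcripts, Clk1-201, which includes exon 4, had 6.57, 8.76 and 9.44 FPKM in enforced wake with Fxr1, 9.21, 6.29 and 3.45 in enforced wake and 5.82, 3.78 and 2.01 in sleep. All libraries with Fxr1 lay above all sleep libraries, and the difference of 0.99 (SE 0.38) did not pass (limma adjusted p = 0.286). Clk1-210, which skips exon 4, had 4.97, 2.32 and 0.952 FPKM in enforced wake with Fxr1, 2.09, 2.11 and 6.00 in enforced wake and 3.09, 2.20 and 3.65 in sleep, with overlapping groups throughout. Among Clk1 transcripts that either hold exon 4 as an exon of its own (1 transcript) or skip it (3), leaving out those with it inside a longer or partial exon such as Clk1-204, skipped forms took 54.6%, 20.9% and 26.1% of FPKM in enforced wake with Fxr1, 20.4%, 27.9% and 69.6% in enforced wake and 36.9%, 41.4% and 76.2% in sleep. All 3 groups overlapped.

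For Clk4 the share formed in the same way (2 transcripts with the exon and 3 that skip it) kept the sleep libraries apart from the other 6. It covers only part of the gene, since it leaves out Clk4-202, which does not span exon 4. The skipping forms were low, with means over the 9 libraries of 0.608 FPKM for Clk4-203, 0.525 for Clk4-212 and 0.493 for Clk4-204. Clk4-203 is annotated as coding, with 301 codons, while Clk4-212 and Clk4-204 are classed for decay. Clk4-202 took 38.2%, 5.18% and 21.4% of Clk4 FPKM in enforced wake with Fxr1. It took 8.94%, 47.2% and 8.55% in enforced wake and 42.9%, 44.0% and 43.0% in sleep. Within the transcripts that the share covers, the values were as follows. Skipped forms took 30.8%, 14.3% and 12.2% in enforced wake with Fxr1, 18.4%, 27.7% and 13.3% in enforced wake and 36.7%, 45.1% and 40.1% in sleep. Forms with exon 4 had 5.03, 7.87 and 6.61 FPKM in enforced wake with Fxr1, 7.10, 3.38 and 7.32 in enforced wake and 3.12, 2.62 and 3.27 in sleep, so here too every sleep library was lowest, by a small margin to enforced wake replicate 2. These shares were formed after the values were seen and are a description with no test. The 2 leading Clk4 transcripts traded places between libraries. Clk4-201 (481 codons) had 4.14, 7.87 and 6.61 FPKM in enforced wake with Fxr1, 6.89, 2.76 and 6.32 in enforced wake and 3.12, 1.88 and 2.91 in sleep. Clk4-202 (301 codons), which does not reach exon 4, had 7.95, 0.637 and 3.03 in enforced wake with Fxr1, 1.08, 5.85 and 1.03 in enforced wake and 6.17, 5.79 and 5.53 in sleep. Enforced wake replicate 2 again stood with sleep, as for Luc7l, and so did enforced wake with Fxr1 replicate 1 for Clk4-202. In enforced wake against sleep Clk4-202 differed by -1.15 (SE 0.51, limma adjusted p = 0.260). Without enforced wake replicate 2, whose removal favours a pass, it differed by -1.73 (limma adjusted p = 0.0200).

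The single Clk3 transcript includes exon 4, so no skipped form is listed for it. The leading Clk2 transcript, Clk2-202, had 3.62, 1.55 and 0.965 FPKM in enforced wake with Fxr1, 1.27, 1.39 and 0.966 in enforced wake and 1.09, 1.897 and 1.42 in sleep, with overlapping groups. Clk2-203 had 0, 1.76 and 1.26 FPKM in enforced wake with Fxr1, 2.004, 1.37 and 1.87 in enforced wake and 1.55, 1.95 and 1.82 in sleep, again with overlap. Clk2-204, the skipped form of Clk2, had 0, 1.58 and 1.15 FPKM in enforced wake with Fxr1, 0, 0 and 1.32 in enforced wake and 0 in all 3 sleep libraries. Intron-retaining transcripts of Clk1 had 4.23, 1.76 and 4.09 FPKM in enforced wake with Fxr1, 3.12, 2.29 and 1.58 in enforced wake and 2.63, 2.66 and 1.69 in sleep. Those of Clk4 had 5.61, 2.46 and 3.63 FPKM in enforced wake with Fxr1, 2.30, 1.88 and 2.53 in enforced wake and 3.29, 2.60 and 1.86 in sleep. The groups overlapped for both genes in all 3 comparisons, and both sums were highest in enforced wake with Fxr1 replicate 1.

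**Figure D4:**
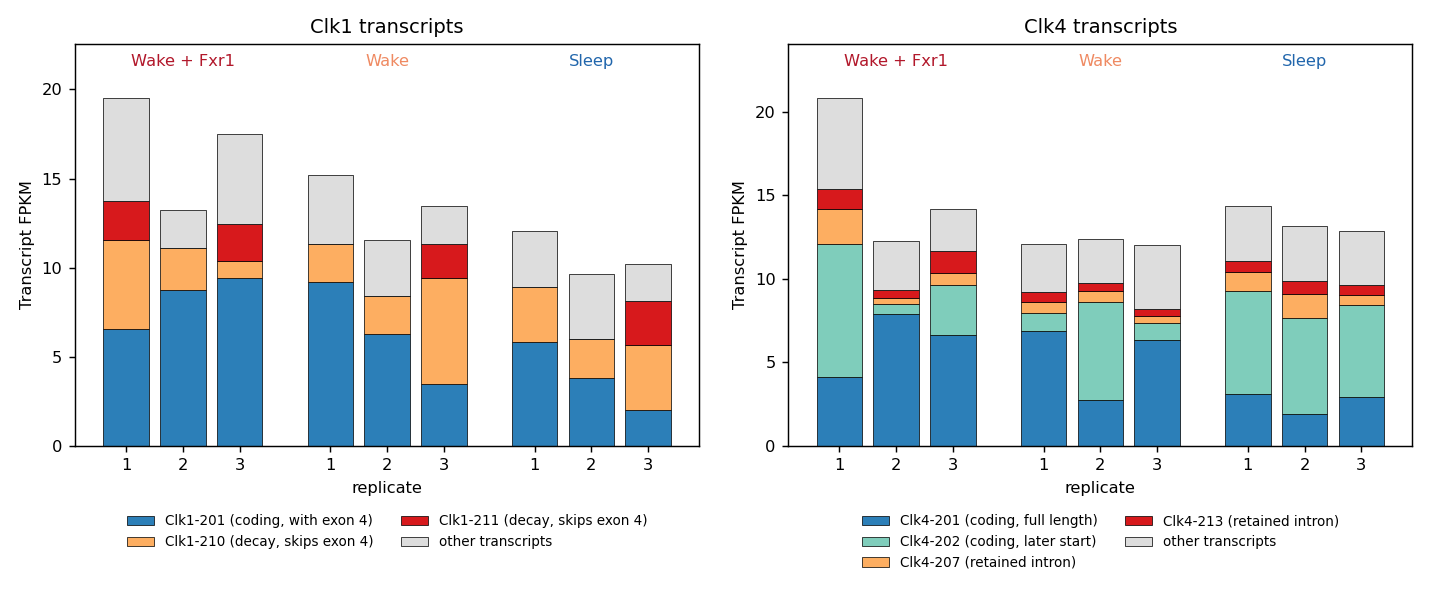
Stacked FPKM (vertical axis, from 0) of the main Clk1 (left) and Clk4 (right) transcripts in each of the 9 libraries, enforced wake with Fxr1 first, then enforced wake, then sleep. Clk4-202 holds 5.53 to 6.17 FPKM in the sleep libraries, 5.85 in enforced wake replicate 2 and 7.95 in enforced wake with Fxr1 replicate 1, and at most 3.03 in the other 4 libraries.

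The leading transcripts of Luc7l2 and Luc7l3 were steadier than those of Luc7l. Luc7l2-203, which retains an intron, was the most abundant Luc7l2 transcript, with 10.6, 8.39 and 9.94 FPKM in enforced wake with Fxr1, 8.67, 8.30 and 7.63 in enforced wake and 6.30, 9.48 and 9.67 in sleep. Its groups overlapped in all 3 comparisons. Luc7l2-207 (coding) had 6.22, 8.61 and 5.84 FPKM in enforced wake with Fxr1, 7.33, 5.55 and 7.38 in enforced wake and 8.12, 4.55 and 3.59 in sleep, also with overlapping groups. Luc7l3-203 (coding, 2050 bases) had 10.8, 8.62 and 7.93 FPKM in enforced wake with Fxr1, 5.09, 4.33 and 6.39 in enforced wake and 7.19, 8.35 and 7.15 in sleep. All enforced wake libraries lay below the other 6, at 0.69 for enforced wake with Fxr1 over enforced wake (SE 0.18, limma adjusted p = 0.209) and -0.46 for enforced wake over sleep (SE 0.15, limma adjusted p = 0.151). Luc7l3-209 (coding, 5244 bases) had 11.2, 8.89 and 8.18 FPKM in enforced wake with Fxr1, 6.40, 4.54 and 8.0 in enforced wake and 7.16, 7.87 and 7.40 in sleep.

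In the authors' deposited table no member transcript had a q-value below 0.477 for enforced wake with Fxr1 over enforced wake (65 transcripts) or below 0.445 for sleep over enforced wake (67 transcripts), the second fold having the opposite direction to the differences given here. Among member transcripts the smallest p-value in the authors' deposited table was 0.00548, for Luc7l3-203, with a fold of 1.75 in sleep over enforced wake. Luc7l3-202 went the other way there, with a fold of 0.151 (p = 0.0198 in the authors' deposited table). Its FPKM were 3.22, 8.61 and 0.663 in enforced wake and 1.40, 0.612 and 1.07 in sleep, so those groups overlapped. For Luc7l-202 the authors' deposited table gave a fold of 0.657 in sleep over enforced wake (p = 0.600) and 2.99 in enforced wake with Fxr1 over enforced wake (p = 0.395). Its fold for Luc7l-206 was 0.641 in sleep over enforced wake, below 1 although that transcript was higher in sleep by FPKM. Over all transcripts with a mean of at least 0.5 FPKM, the authors' deposited table and the FPKM had the same direction in 82.1% of transcripts for sleep over enforced wake and in 82.8% for enforced wake with Fxr1 over enforced wake, and among members in 27 of 33 and 30 of 35.

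The genes around the members were counted from lists, and their differences are given without removal of the trend of GC content and length. Of 13 SR protein genes, the substrates of the kinases, 4 rose and 1 fell in enforced wake against sleep, none passed with limma in enforced wake with Fxr1 against enforced wake, and 2 rose and 1 fell in enforced wake with Fxr1 against sleep. Over all genes 28.3%, 0.412% and 7.79% were called in these comparisons. Srsf10, an SR protein that represses splicing when it is dephosphorylated, rose to 23.7, 21.9 and 25.0 FPKM in enforced wake, against 11.6, 12.5 and 13.6 in sleep (0.85, SE 0.08, limma adjusted p = 0.00208). Srsf5 fell to 46.6, 57.1 and 54.1 FPKM in enforced wake, against 94.7, 102 and 92.9 in sleep (-0.87, SE 0.09, limma adjusted p = 0.00236). They differed in enforced wake with Fxr1 against sleep by 1.13 and -0.81, while Srsf6 and Srsf2, with the lowest p between enforced wake with and without Fxr1, did not pass there (0.45 and 0.32, limma adjusted p = 0.0880 and 0.0949). For Srsf10 and Srsf5 both pairs of groups were apart by a wide margin. The median difference of the list in enforced wake against sleep was 0.12, against 0.00427 for all genes.

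Of 16 genes of the U1 snRNP and 5′ splice site recognition, 5 rose and 2 fell in enforced wake against sleep, none passed with limma in enforced wake with Fxr1 against enforced wake, and 2 rose and none fell in enforced wake with Fxr1 against sleep. Snrnp70, the core protein of the U1 snRNP, rose to 22.3, 21.3 and 22.7 FPKM in enforced wake, against 12.5, 12.1 and 13.3 in sleep (0.76, SE 0.06, limma adjusted p = 0.00135), and Snrpb, a core protein of spliceosomal snRNPs, rose by 0.44 (SE 0.06, limma adjusted p = 0.00560). Snrnp70 and Prpf39 rose in enforced wake with Fxr1 against sleep, by 0.38 and 0.56 (limma adjusted p = 0.0411 and 0.0437). The 7 of 16 called in enforced wake against sleep stand beside 28.3% of all genes, and the median of the list was 0.0068, against 0.0043 for all genes. Of 8 measured genes of other kinases of splicing proteins, 1 fell in enforced wake against sleep, Prpf4b (-0.20, SE 0.06, limma adjusted p = 0.0384), and none passed in the other comparisons. Of nuclear-retained long non-coding RNAs, Miat alone rose among 4 in enforced wake against sleep, and Malat1 had 295, 134 and 301 FPKM in enforced wake with Fxr1, 163, 142 and 173 in enforced wake and 147, 160 and 117 in sleep, with overlapping groups.

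Markers of other cell types were summed per library, since their RNA is also present in the pull-down. The 5 astrocyte markers summed to 73.8 to 88.1 FPKM in enforced wake with Fxr1, 118 to 142 in enforced wake and 109 to 128 in sleep, so the libraries with Fxr1 were lowest. One of them, Gfap, fell to 9.27, 11.996 and 13.1 FPKM in enforced wake with Fxr1, against 35.5, 34.1 and 41.2 in enforced wake (-1.62, SE 0.14, limma adjusted p = 0.0245). The 5 oligodendrocyte markers summed to 105 to 120 FPKM in enforced wake with Fxr1, 120 to 140 in enforced wake and 77.1 to 125 in sleep, and Mbp rose in enforced wake against sleep (0.92, SE 0.09, limma adjusted p = 0.00235). The 5 microglia markers summed to 8.38 to 12.4 FPKM in enforced wake with Fxr1, 13.3 to 16.4 in enforced wake and 9.43 to 14.5 in sleep, and Tmem119 rose in enforced wake against sleep. The 5 endothelial markers summed to 4.11 to 6.67 FPKM in enforced wake with Fxr1, 5.09 to 6.51 in enforced wake and 5.77 to 7.77 in sleep, and Kdr fell in enforced wake against sleep. The 7 neuronal markers summed to 3688 to 3798 FPKM in enforced wake with Fxr1. Their sums were 3420 to 3559 in enforced wake and 3795 to 3967 in sleep, and all lay far above the other lists. Syt1 and Snap25 fell in enforced wake against sleep, while the median log2 difference of the 7 markers was 0.077. Most of the sum came from Snap25, with a mean of 2288 FPKM in enforced wake and 2657 in sleep. No other marker of these 5 lists passed, apart from Gfap in enforced wake with Fxr1 against sleep. No marker was at 0 in any library, and the part of these cells in the member values was not tested.

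Gene patterns most like each member were named by Pearson r of log2(FPKM + 1) over the 9 libraries, among 8094 genes with a mean of at least 5 FPKM. Clk2 and Clk3 were each nearest to the other (r = 0.986), and both have a high GC content; Nup62 (0.986) and Ppp1r13b (0.983) followed for Clk2, and Tnk2 (0.985) and Kcna3 (0.982) for Clk3. The nearest genes were Hnrnpm (0.949), Ssh2 (0.936) and Net1 (0.934) for Clk1, and Lingo2 (0.989), Csmd3 (0.981) and Tmem33 (0.957) for Clk4. For Luc7l they were Ippk (0.967), Ccdc117 (0.962) and Cpsf7 (0.953), for Luc7l2 Lats1 (0.982), Osgin2 (0.976) and Itgb1 (0.973), and for Luc7l3 Cyp51 (0.991), Hook3 (0.991) and Txlng (0.988). The points share libraries and the GC trend of each library, and these values are a description.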

How the data were processed

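Ribosome-associated RNA of 9 libraries, 3 in each of 3 groups, was deposited by the authors as 2 tables of FPKM per transcript, which share the enforced wake libraries with identical values. The submitters' processing notes name HISAT2 2.1.0, SAMtools 1.9, StringTie 1.3.4d and the GRCm38 build. The tables also hold the authors' fold ratios, p-values and q-values, and no source used here names the tool behind them. Of 115220 transcripts, 114237 (99.1%) were found in the GENCODE M21 annotation. FPKM are not counts, so limma 3.58.1 (R 4.3.3) was run on log2(FPKM + 1) values (trended variance, Benjamini-Hochberg adjustment over all features tested, threshold 0.05), after a filter of a mean FPKM of at least 0.5. The first 2 comparisons were fitted on their own 6 libraries and enforced wake with Fxr1 against sleep on all 9. Tests covered gene sums, transcripts, transcript shares and the ratio of non-coding to coding transcripts. A tested share is the log2 ratio of a transcript to the sum of the other transcripts of its gene, not a percentage. The code was tested on simulated data. Depth was estimated from the steps of low FPKM values and covers counting only.

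The members and lists were chosen with earlier results of these data known. All 7 members were named, with the 2 transcripts of highest mean FPKM per gene, up to 2 genes with the lowest p per list and comparison, and the 3 genes most correlated with each member. Not every gene of the lists that this allows is printed. Other transcripts named were chosen after their values were seen: Luc7l-201, Luc7l2-202, Luc7l2-213, Luc7l3-202, Luc7l3-204, Clk1-204, Clk1-211, Clk2-204, Clk4-203, Clk4-204 and Clk4-212. Alternatives were another pseudocount, other filters, quantile normalization, equal protein-coding totals, removal of the trend of GC content and length, other libraries in the fit, untrended variance, a replicate block and leaving out each library. The length-weighted gene value (FPKM times length in kilobases) was chosen after seeing the data.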

Additional observations from a re-analysis of the deposited data

How the results depend on the processing

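Against counts of 2, 0 and 2 called member genes (enforced wake minus sleep, enforced wake with Fxr1 minus enforced wake, enforced wake with Fxr1 minus sleep), the first was 1 with no filter, quantile normalization, other libraries in the fit and untrended variance, that of the second 1 with other libraries, and that of the last 1 with no filter and with other libraries. Counts of 3 were also seen, in the first at a mean FPKM of at least 2 and with the trend of GC content and length removed, and in the last with quantile normalization, equal protein-coding totals and the trend removed. In enforced wake with Fxr1 minus sleep, where no transcript, share or ratio was called, other libraries in the fit called 2, 3 and 1, and no filter called 2 shares. Leaving out 1 library gave 0 to 2 and 1 to 2 member genes in the first and last comparisons, 0 to 3 and 0 to 2 transcripts, 0 to 3 and 0 to 3 shares and 0 to 1 and 0 to 1 ratios.

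Removing the trend of GC content and length gave, on the log2 scale, -0.0054 for Clk2, 0.19 for Clk4, 0.21 for Luc7l2 and 0.14 for Luc7l2-203 in enforced wake minus sleep, where signs turned. In enforced wake with Fxr1 minus enforced wake it gave -0.20 for Clk1, 0.41 for Clk2, 0.28 for Clk3 and Clk3-201, -0.10 for Clk4, -0.023 for Luc7l3, -0.19 for Luc7l2-207 and -0.12 for Luc7l2-203. In enforced wake with Fxr1 minus sleep it gave 0.40 for Clk2 and 0.32 for Clk3 and Clk3-201. In that comparison quantile normalization gave 0.12 for Clk2 and 0.032 for Clk3 and Clk3-201, and equal protein-coding totals gave 0.040 and 0.0029. The length-weighted value gave 0.027 for Luc7l2 in enforced wake minus sleep. The cause was not tested.

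With 1 library left out, differences in enforced wake minus sleep ran from -0.042 to 0.037 for Luc7l2, -0.34 to 0.25 for Clk1-210, -0.086 to 0.084 for Clk2-203 and -0.20 to 0.072 for Luc7l2-203. In enforced wake with Fxr1 minus enforced wake they ran from -0.67 to 0.13 for Clk1-210, -0.11 to 0.45 for Clk4-201, -0.26 to 0.97 for Clk4-202 and -0.13 to 0.11 for Luc7l2-207. In enforced wake with Fxr1 minus sleep they ran from -0.071 to 0.070 for Clk2, -0.17 to 0.089 for Clk3 and Clk3-201, -0.025 to 0.33 for Clk4, -0.63 to 0.18 for Clk1-210 and -0.13 to 0.49 for Clk2-202.

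Deviations from the group means correlated at -0.264 to 0.180 between same-numbered libraries and at -0.399 to 0.440 between those of different number. The labels do not state whether the numbers pair the samples. With only 3 libraries in each group these correlations cannot decide it. With the replicate block 2, 0 and 2 member genes were called and 3116, 1 and 372 of all genes. The block added Clk1 in the first and last comparisons (limma adjusted p = 0.0385 and 0.0295) and lost Clk3 in the first (0.0551) and Luc7l3 in the last (0.0815). With the block and the trend removed the last count of members was 1, and all genes numbered 1869, 5 and 1100.

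Over all genes the counts of 4156, 60 and 1138 changed most with other libraries in the fit (1398, 3366 and 183), and the first fell to 1822 and the second to 2 with 1 library left out, or reached 3316 without enforced wake with Fxr1 replicate 1. The second was 29 at a pseudocount of 0.1, 4 with no filter, 34 at a mean of at least 2 and 36 with equal protein-coding totals. The last was 1718 with the trend removed and 248 without sleep replicate 1. Quantile normalization moved the median of all genes in the second comparison from -0.06 to 0.06, and the split of higher and lower calls to 2005 and 2279, against 2298 and 1858, in the first and to 618 and 419, against 468 and 670, in the last. Equal protein-coding totals gave 11 higher and 25 lower, against 12 and 48, in the second and 624 and 502 in the last.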

Other observations

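Some of the 12 transcripts classed for nonsense-mediated decay came and went between libraries of the same group. Others did not, such as Clk1-210, which had 0.952 to 6.00 FPKM in the 9 libraries. It was not particular to this class: the coding Clk2-203 had 0, 1.76 and 1.26 FPKM in enforced wake with Fxr1. Clk1-211, which skips exon 4, had 2.23, 0 and 2.04 FPKM in enforced wake with Fxr1, 0, 0 and 1.89 in enforced wake and 0, 0 and 2.44 in sleep. Luc7l3-204 had 0.325, 2.14 and 2.52 FPKM in enforced wake with Fxr1, 0.0879, 0.0668 and 3.31 in enforced wake and 0.118, 0.853 and 1.56 in sleep. Luc7l2-202 had 2.32, 0 and 1.14 FPKM in enforced wake with Fxr1, 0.00494, 0 and 0 in enforced wake and 0, 0.00665 and 1.25 in sleep. In each group at least 1 library of Clk1-211 and Luc7l3-204 lay above 1.5 FPKM and another below 1, so the groups overlapped.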
